A study of Mus musculus with 6 samples.

Results

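The genes described here encode proteins of the motile cilium that carry a CFAP (cilia and flagella associated protein) or RSPH (radial spoke head) symbol, with the central apparatus genes Spag6, Spag6l, Spag16, Spag17 and Hydin, the regulatory complex genes Drc1, Drc3 and Drc7, and Sntn. They were chosen by symbol from a table of RNA-seq counts of mouse hypothalamus. The rule found 49 of the 50559 genes in the table. Of these, 48 had at least 10 counts summed over the 6 libraries and 47 had enough counts to be tested. Just inside that minimum was Rsph6a with 51 counts in all, and just outside it Cfap97d1 with 2. The 6 libraries came from 3 wild-type samples and 3 samples lacking SRC-1, steroid receptor coactivator 1, a coactivator of nuclear receptors that is encoded by Ncoa1. The sources used here state no strain, age, sex, allele or pooling of animals. Nothing ties each replicate to its own animal, and p-values therefore rest on variation among these libraries, which could be technical.

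The beating part of a motile cilium is the axoneme, a ring of doublet microtubules around a central pair. Radial spokes reach from the doublets to projections of the central pair, and this contact, together with the nexin-dynein regulatory complex (N-DRC) that links neighbouring doublets, sets when the dynein arms pull. Microtubule inner proteins sit inside the doublets and stabilise them. In the brain such cilia are carried by ependymal cells, which line the ventricles and move cerebrospinal fluid, and by some cells of the choroid plexus. The forkhead factor FOXJ1 and the RFX factors, which bind the X-box motif, are known activators of these genes.

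Promoter windows of 300 bases (250 before to 50 after the gene start) were matched by symbol for 38 of the 47 tested genes, in 42 windows from RefSeq on GRCm38.p6. The members without a window were Cfap53, Rsph1, Cfap54, Rsph4a, Cfap97, Cfap73, Cfap299, Cfap157 and Cfap65. A single X-box site, GTTGCC on either strand, was in 42.9% of the member windows (18 of 42) and in 12.5% of all 32851 windows in the table. A spaced pair of such sites (GTNNCC, then any 3 bases, then GNAAC, on either strand) was in 19% of member windows (8 of 42) against 2.17% of all windows, and in 5 of those 8 it overlapped a single site. The forkhead motif GTAAACA was in 7.14% (3 of 42) against 3.65%. The single site was in 33.3% (9) of the 27 windows of members with a log2 fold change under -0.5 and in 60% (9) of the other 15. The pair was in 25.9% (7) and 6.67% (1). This cut was set after the values were seen, some genes gave more than 1 window, and the contrast was not tested. These are matches of letters and no binding was measured. The stretches below are shown because they hold the spaced pair, in capitals, before the gene start. Each is 60 bases long and read 5′ to 3′ on the strand of its gene.
Spag16 (chr1:69826844-69826903, plus strand): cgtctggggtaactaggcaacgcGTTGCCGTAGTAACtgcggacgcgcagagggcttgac
Cfap45 (chr1:172521070-172521129, plus strand): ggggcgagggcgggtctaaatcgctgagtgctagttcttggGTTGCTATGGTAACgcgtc
Cfap206 (chr4:34730207-34730266, minus strand): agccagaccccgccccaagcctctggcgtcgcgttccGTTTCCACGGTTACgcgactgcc
Hydin (chr8:110266917-110266976, plus strand): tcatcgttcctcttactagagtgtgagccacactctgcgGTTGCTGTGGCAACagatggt
Cfap44 (chr16:44394739-44394798, plus strand): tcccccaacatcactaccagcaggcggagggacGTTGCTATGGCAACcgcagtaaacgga
Cfap298 (chr16:90935001-90935060, minus strand): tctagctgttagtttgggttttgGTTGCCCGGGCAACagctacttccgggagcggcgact
Among these 6 stretches the pair was nearest the gene start in Cfap45, where its first base lay at position -19, and farthest in Cfap298, at -188. A pair was also in the windows of Cfap61 and Spag6l, which are not shown. In Cfap61, which was lower in the knockout past the threshold, it began at -8 and crossed the gene start. In Spag6l it lay after the gene start, at 34. Spag16 and Cfap206 were lower in the knockout past the threshold, and Cfap298 had a log2 fold change near 0 (-0.12), so the 6 sequences belong to genes with unlike differences. The 250 bases before Sntn, the gene with the most negative fold change, held a forkhead match and a single X-box site, both in capitals. Sntn is on the plus strand of GRCm38.p6 in this window, while the annotation of the counts on GRCm39 puts it on the minus strand.
Sntn (chr14:13670626-13670875, plus strand): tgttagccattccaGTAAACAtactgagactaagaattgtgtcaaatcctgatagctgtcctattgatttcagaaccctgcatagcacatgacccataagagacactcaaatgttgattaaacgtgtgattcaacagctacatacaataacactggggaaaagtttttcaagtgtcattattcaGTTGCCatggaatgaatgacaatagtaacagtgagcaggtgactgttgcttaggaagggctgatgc

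Library totals ran from 36613507 to 46755553 counts. Ncoa1 counts of 4630 to 5406 in the wild-type libraries and 1478 to 1766 in those of the knockout matched the labels. Neuron markers were abundant in all 6 libraries (summed CPM of 4040 to 4840 over 9 genes, where CPM are read counts scaled to library size with TMM factors), and Rax, which marks tanycytes of the hypothalamic ventricle floor, was detected in each, with 68 to 168 wild-type counts and 23 to 30 knockout counts. Of 20257 genes tested, 169 (0.834%) changed at an adjusted p under 0.05 in edgeR's quasi-likelihood test.

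The comparison of genotypes asked how the axonemal genes stood in hypothalamus without SRC-1. All 47 tested members had a negative log2 fold change, with a median of -0.88 against 0.00 over all genes tested, where 48.9% were negative. After adjustment over all genes, 10 members fell and none rose, while 0.592% of all tested genes fell and 0.242% rose. The 10 were Sntn, Cfap52, Spag16, Cfap126, Cfap206, Cfap57, Rsph1, Cfap54, Cfap61 and Rsph4a. The knockout libraries lay below every wild-type library in 32 of the 47, against 9.03% of all genes tested, and above every one in 0, against 8.58%. The groups overlapped in the other 15. At an unadjusted p under 0.05, 35 members were lower and 0 higher, against 7.21% and 5.75% of all genes (13% in either direction). DESeq2 called 25 members lower, against 2.75% of all genes, and limma-voom 6, against 0.4%. In bulk tissue, fewer cells of a type and less RNA per cell cannot be told apart.

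**Figure D1:**
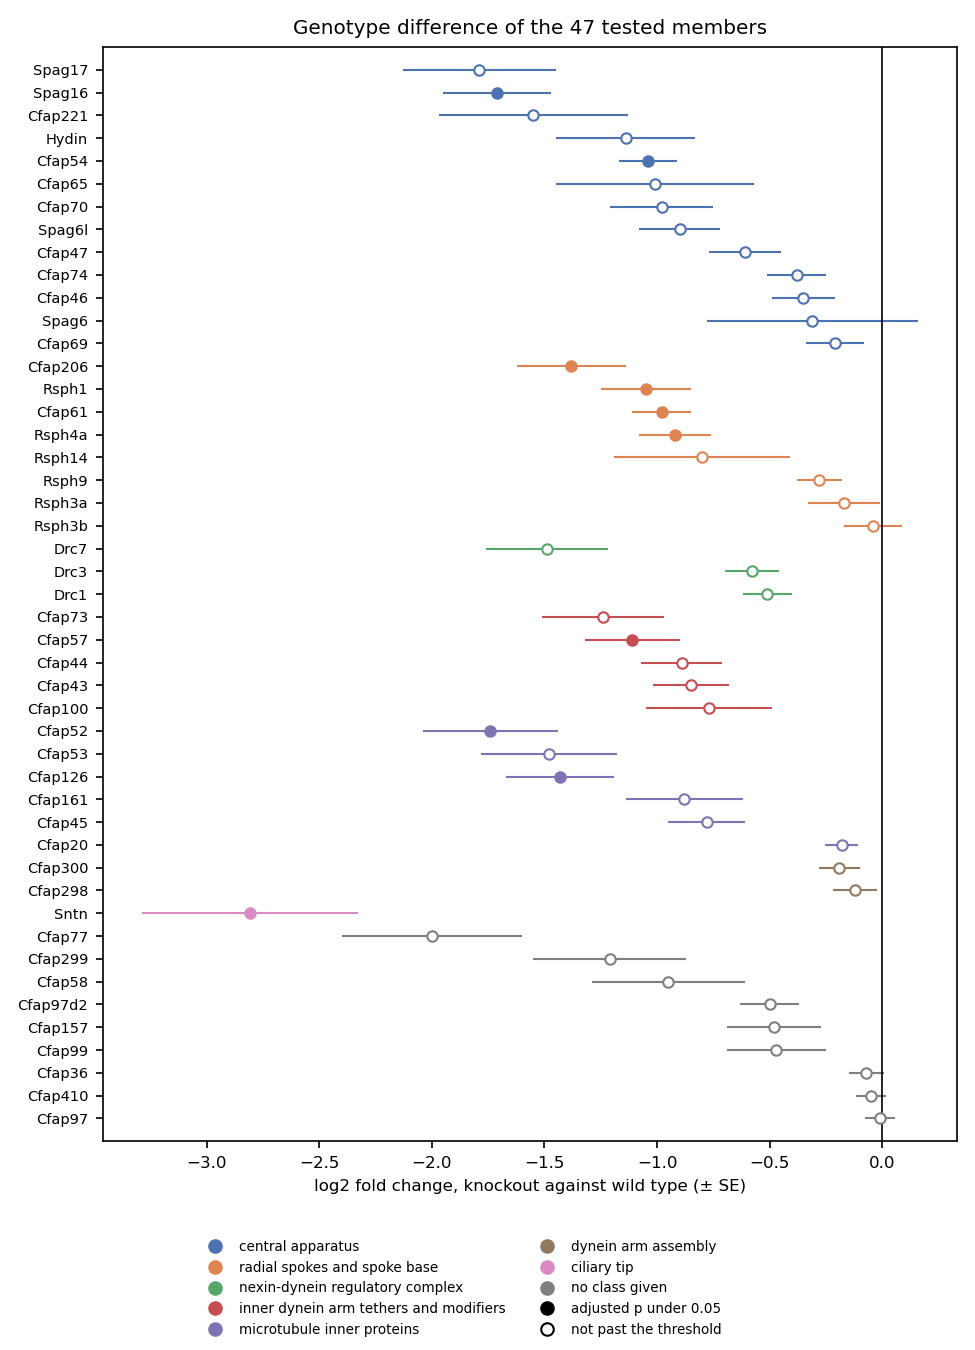
Log2 fold change of the knockout against wild type with its standard error for the 47 tested genes, coloured by class; filled points passed the adjusted threshold. Values run from -2.81 for Sntn to -0.01 for Cfap97, and every class except dynein arm assembly holds a value below -0.5.

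How many members passed depended on single libraries. Leaving out wild-type replicates 1, 2 and 3 in turn, the number that fell was 3, 7 and 6, where 0.261%, 0.379% and 0.752% of all genes fell. Leaving out knockout replicates 1, 2 and 3, it was 2, 19 and 3, where 0.111%, 1.08% and 0.429% of all genes fell. Cfap54 passed in all 6 of these fits, and 23 members passed in at least 1. Spag16 and Cfap61 passed in 5 and missed the threshold without knockout 1 (edgeR adjusted p of 0.0748 and 0.0745). For Sntn the adjusted p was 0.115 when wild-type 1 was left out, 0.0899 for wild-type 2, 0.11 for knockout 1 and 0.102 for knockout 3. For Cfap126 it was 0.125, 0.0794 and 0.0875 with wild-type 1, 2 or 3 left out, and 0.0843 with knockout 3 left out. For Rsph4a it was 0.0961 and 0.0993 with wild-type 1 or 3 left out, and 0.114 and 0.0947 with knockout 1 or 3 left out. Cfap52, Cfap206, Cfap57 and Rsph1 passed in 1 of the 6 fits each, the first 3 without knockout 2 and Rsph1 without wild-type 2 (adjusted p of 0.0291, 0.00713, 0.0161 and 0.0471). In the 5 fits where they did not pass, the adjusted p ran from 0.0522 without wild-type 2 to 0.0959 without knockout 1 for Cfap52, from 0.0609 without wild-type 2 to 0.108 without knockout 1 for Cfap206, from 0.0514 without wild-type 3 to 0.195 without knockout 1 for Cfap57, and from 0.0586 without knockout 2 to 0.128 without knockout 1 for Rsph1.

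In the central apparatus, 2 of 13 tested genes fell in edgeR (6 in DESeq2 and 2 in limma-voom), and all 13 values were negative with a median of -0.98. Among all tested genes 0.592% fell in edgeR, 2.75% in DESeq2 and 0.4% in limma-voom, and 48.9% of values were negative. Spag16, a WD-repeat protein of the bridge between the central microtubules, had 7.33, 5.44 and 4.52 CPM in wild-type replicates 1 to 3 and 1.41, 2.29 and 1.58 CPM in knockout replicates 1 to 3. Every knockout library was below every wild-type library, and the means of 5.76 ± 1.43 and 1.76 ± 0.471 CPM (SD, n = 3 each) left 30.5% of the wild-type level, with a log2 fold change of -1.71 ± 0.24 (SE) and an adjusted p of 0.0148. Cfap54, a large protein of a projection of the central pair, had 29.9, 24.8 and 22.4 CPM in wild type and 10.7, 14.3 and 12.6 CPM in the knockout. Its groups were well apart, with -1.04 ± 0.13 and an adjusted p of 0.013. Spag17, which belongs to another projection, had 5.25, 3.80 and 3.06 CPM in wild type against 0.763, 1.84 and 0.920 CPM in the knockout. Its groups did not overlap and its log2 fold change was more negative than that of Spag16, at -1.79 ± 0.34, yet it did not pass in edgeR (adjusted p 0.0567).

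The other central apparatus genes did not pass in edgeR. Hydin, whose loss causes hydrocephalus in mice, had 19.6, 11.8 and 12.5 CPM in wild type and 4.43, 8.90 and 6.68 CPM in the knockout (-1.14 ± 0.31, adjusted p 0.201). The armadillo-repeat gene Spag6l had 14.6, 9.19 and 10.1 CPM against 5.29, 6.12 and 6.68 CPM (-0.90 ± 0.18, adjusted p 0.0541 in edgeR and 6.8e-05 in DESeq2). In both genes wild-type replicate 1 stood above the other wild-type libraries. Spag6, the related copy on chromosome 2, was near the limit of detection, with wild-type counts of 10, 24 and 9 and knockout counts of 17, 9 and 11, and the groups overlapped. Its longest GENCODE transcript matched that of Spag6l at 85.2% identity over 1739 aligned positions. Cfap65, a gene needed for sperm flagella, was uneven in the knockout, at 7.55, 19.2 and 7.76 CPM against 26.6, 22.9 and 19.8 CPM in wild type. Knockout replicate 2 lay close to wild-type 3, and the difference of -1.01 ± 0.44 had an adjusted p of 0.45. Cfap221 and Cfap70 had log2 fold changes of -1.55 and -0.98, Cfap47 -0.61, Cfap74 -0.38, Cfap46 -0.35 and Cfap69 -0.21, the last 3 with overlapping groups.

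**Figure D2:**
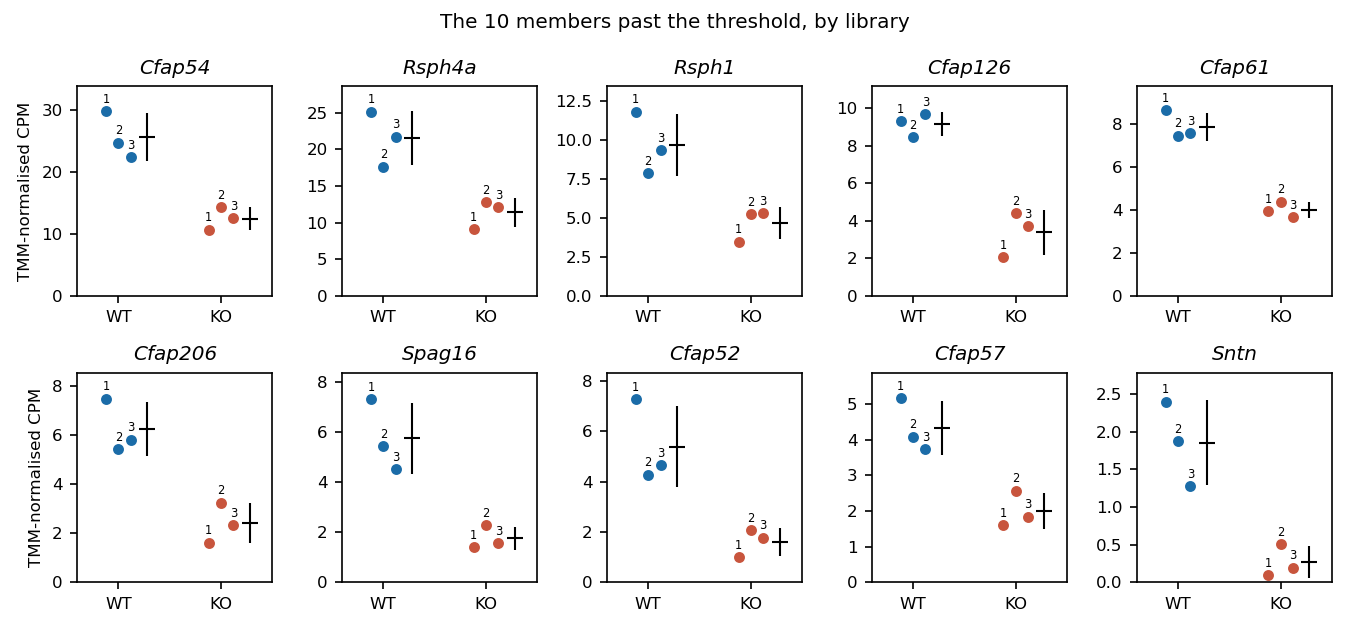
TMM-normalised CPM of the 10 genes that fell, in each of the 3 wild-type and 3 knockout libraries, numbered by replicate; black bars are the mean ± SD. The groups do not overlap in any panel, and knockout replicate 1 is the lowest library in 9 of the 10, all but Cfap61.

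Of the 8 tested genes of the radial spokes and their base, 4 fell in edgeR, 4 in DESeq2 and 2 in limma-voom. The shares of all tested genes that fell were 0.592%, 2.75% and 0.4% in that order. The median of the class was -0.86. Cfap206, which anchors a spoke to the doublet, had 7.48, 5.44 and 5.82 CPM in wild type and 1.62, 3.25 and 2.34 CPM in the knockout (-1.38 ± 0.24, adjusted p 0.0398). Cfap61, part of the calmodulin and spoke associated complex at the spoke base, was even within both groups, at 8.63, 7.45 and 7.56 CPM against 3.93, 4.38 and 3.66 CPM (-0.98 ± 0.13, adjusted p 0.0121). Its knockout libraries held about the same level, 50.7% of the wild-type mean. The spoke head genes Rsph1 and Rsph4a, both mutated in primary ciliary dyskinesia, had close log2 fold changes. Rsph1 had 11.8, 7.87 and 9.34 CPM against 3.48, 5.22 and 5.28 CPM (-1.05 ± 0.20, adjusted p 0.0486). Rsph4a had 25.1, 17.6 and 21.7 CPM against 9.13, 12.8 and 12.1 CPM (-0.92 ± 0.16, adjusted p 0.0477). Another spoke head gene, Rsph9, had 30.9, 24.7 and 29.4 CPM against 20.7, 24.6 and 24.8 CPM, with overlapping groups (-0.28 ± 0.10, adjusted p 0.27). Rsph1 shares 11.7% of its exon bases with Ubash3a, and reads that fitted both genes equally were counted for neither.

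Rsph3a and Rsph3b, near copies on chromosome 17 that encode a protein of the spoke stalk, matched at 96.7% identity over 2306 aligned positions of their longest GENCODE transcripts, so their counts are uncertain. Rsph3a had wild-type counts of 162, 200 and 227 and knockout counts of 204, 156 and 194, and Rsph3b had 376, 282 and 322 against 334, 280 and 395. The groups overlapped in both, and the log2 fold changes were -0.17 ± 0.16 and -0.04 ± 0.13. Rsph14 was at -0.80 ± 0.39 with overlapping groups. Rsph6a, a spoke head gene used in sperm, was too low to test, with wild-type counts of 6, 7 and 7 and knockout counts of 12, 9 and 10, and it was the single described member in which each knockout library was above each wild-type library.

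The N-DRC genes Drc7, Drc3 and Drc1 did not pass in edgeR (3 of 3 were lower at an unadjusted p under 0.05, and DESeq2 called 3 and limma-voom 0), although in each the knockout libraries lay below all wild-type libraries. Of all tested genes 7.21% were lower at that unadjusted p, and DESeq2 called 2.75% lower and limma-voom 0.4%. Knockout libraries lay below all wild-type libraries in 9.03% of all tested genes. Drc7 had 11.2, 7.26 and 7.51 CPM in wild type and 2.12, 4.21 and 2.94 CPM in the knockout (-1.49 ± 0.27, adjusted p 0.053). Drc1, a scaffold of the complex, had 28.2, 23.4 and 24.0 CPM against 15.2, 18.7 and 19.1 CPM, and 70.2% of its wild-type mean was left (-0.51 ± 0.11, adjusted p 0.0583). Drc3, another subunit, had 19.4, 19.4 and 18.5 CPM against 10.7, 15.2 and 12.4 CPM, with 66.8% left (-0.58 ± 0.12, adjusted p 0.053). The difference between Drc7 and the other 2 was not tested.

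Among the tethers and modifiers of the inner dynein arms, Cfap57 was the 1 of 5 that fell in edgeR, where DESeq2 called 5 and limma-voom 0. These tools called 0.592%, 2.75% and 0.4% of all tested genes lower, in that order. Cfap57 had 5.17, 4.09 and 3.73 CPM in wild type and 1.60, 2.57 and 1.84 CPM in the knockout (-1.11 ± 0.21, adjusted p 0.0477). Cfap43 and Cfap44, partners that tether a dynein head to the doublet and are mutated in forms of male infertility, had near-equal log2 fold changes of -0.85 ± 0.17 and -0.89 ± 0.18, with adjusted p of 0.07 and 0.0889. Cfap43 had 18, 15.5 and 16.9 CPM in wild type and 7.08, 12 and 8.96 CPM in the knockout. Cfap44 had 30.8, 28.5 and 21.6 CPM against 11.8, 17.9 and 13.9 CPM. Knockout 2 was the highest knockout library in both, while the wild-type libraries differed in order. Cfap73 was at -1.24 ± 0.27 (adjusted p 0.0642). Its binding partner Cfap100 had 12.5, 11.3 and 7.89 CPM against 5.36, 8.79 and 4.51 CPM, with overlapping groups (-0.77 ± 0.28, adjusted p 0.32), and 22.4% of its exon bases are shared with another gene.

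Of 6 tested microtubule inner proteins, Cfap52 and Cfap126 fell in edgeR (5 in DESeq2 and 1 in limma-voom), and the groups did not overlap in any of the 6. For all tested genes the shares that fell were 0.592% in edgeR, 2.75% in DESeq2 and 0.4% in limma-voom. The knockout was lower without overlap in 9.03% of them. Cfap52 had 7.26, 4.28 and 4.64 CPM in wild type and 1.00, 2.07 and 1.77 CPM in the knockout (-1.74 ± 0.30, adjusted p 0.0416). Cfap126, known as Flattop for its part in placing basal bodies, had 9.32, 8.45 and 9.67 CPM in wild type, an even group, and 2.05, 4.41 and 3.70 CPM in the knockout (-1.43 ± 0.24, adjusted p 0.0417). Cfap53, whose loss disturbs left-right patterning, was at -1.48 ± 0.30 (adjusted p 0.0527). Cfap161 was at -0.88 and Cfap45 at -0.78. Cfap20 had the value nearest 0 of the 6, with 37.2, 37.3 and 36.0 CPM in wild type and 30, 33.2 and 34.6 CPM in the knockout, 88.4% of the wild-type mean (-0.18 ± 0.073, adjusted p 0.333).

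Sntn, which encodes sentan, a protein of the narrow tip of motile cilia, had the most negative value of all members. It had wild-type counts of 98, 71 and 53 and knockout counts of 4, 20 and 9, or 1.85 ± 0.564 and 0.266 ± 0.213 CPM (SD, n = 3 each), which left 14.3% of the wild-type level. The log2 fold change was -2.81 ± 0.48, with an adjusted p of 0.0447, and it rests on 33 counts over the 3 knockout libraries. The dynein arm assembly genes were at the other end, with 0 of 2 called by edgeR, DESeq2 or limma-voom and 0 at an unadjusted p under 0.05. Cfap300 had 14.5, 13.1 and 14.5 CPM against 11.5, 12.7 and 12.8 CPM (-0.19 ± 0.091, adjusted p 0.426), and Cfap298 had 21.0, 19.5 and 23.6 CPM against 18.2, 19 and 21.7 CPM (-0.12 ± 0.097, adjusted p 0.685). Cfap298 shares 25.4% of its exon bases with another gene.

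The remaining 9 tested members were given no class. None passed in edgeR, with 5 lower and 0 higher at an unadjusted p under 0.05, and DESeq2 called 1 and limma-voom 0. At that unadjusted p, 7.21% of all tested genes were lower and 5.75% higher. DESeq2 called 2.75% of all genes lower and limma-voom 0.4%. Cfap77 had 1.89, 0.819 and 0.818 CPM in wild type and 0.262, 0.378 and 0.241 CPM in the knockout, so wild-type replicate 1 was above the other 5 libraries and the groups did not overlap (-2.0 ± 0.40, adjusted p 0.053). Cfap299 was at -1.21, Cfap58 at -0.95, Cfap97d2 at -0.50, Cfap157 at -0.48 and Cfap99 at -0.47. Cfap36, Cfap410 and Cfap97 had the values nearest 0 of the class, at -0.07 ± 0.077, -0.05 ± 0.068 and -0.01 ± 0.068. Cfap36 is a binding partner of the small GTPase ARL3, and Cfap410 acts in photoreceptor and primary cilia. Cfap97 had 44.4, 41.6 and 44.2 CPM in wild type and 43.7, 40.9 and 45.1 CPM in the knockout, and Cfap410 had 43.3, 40.1 and 45.1 CPM against 41.6, 40.9 and 41.5 CPM. Cfap36 had 91.9, 93.5 and 104.0 CPM against 88.8, 87.2 and 99.6 CPM, and Ppp4r3b shares 45% of its exon bases. In these 3 genes the groups overlapped and the differences were under the spread between replicates.

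Compared per length, the members spanned a wide range of levels. The highest wild-type levels were those of Cfap20 (27.0 CPM per kb of exon), Cfap36 (23.0), Cfap410 (19.8), Rsph9 (10.6) and Drc1 (9.78), in which the log2 fold changes lay between -0.51 and -0.05. Sntn was at 1.49 CPM per kb in wild type, Spag16 at 1.06 and Cfap52 at 2.42. Of the 10 genes that fell, Rsph1 had the highest level, 8.75 CPM per kb. Spag6, the lowest of the tested members at 0.135 CPM per kb, was at -0.31 ± 0.47. Of the 47 values, 17 were under -1 (2.68% of all genes were), 14 from -1 to -0.5, 7 from -0.5 to -0.25 and 9 within 0.25 of 0.

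**Figure D3:**
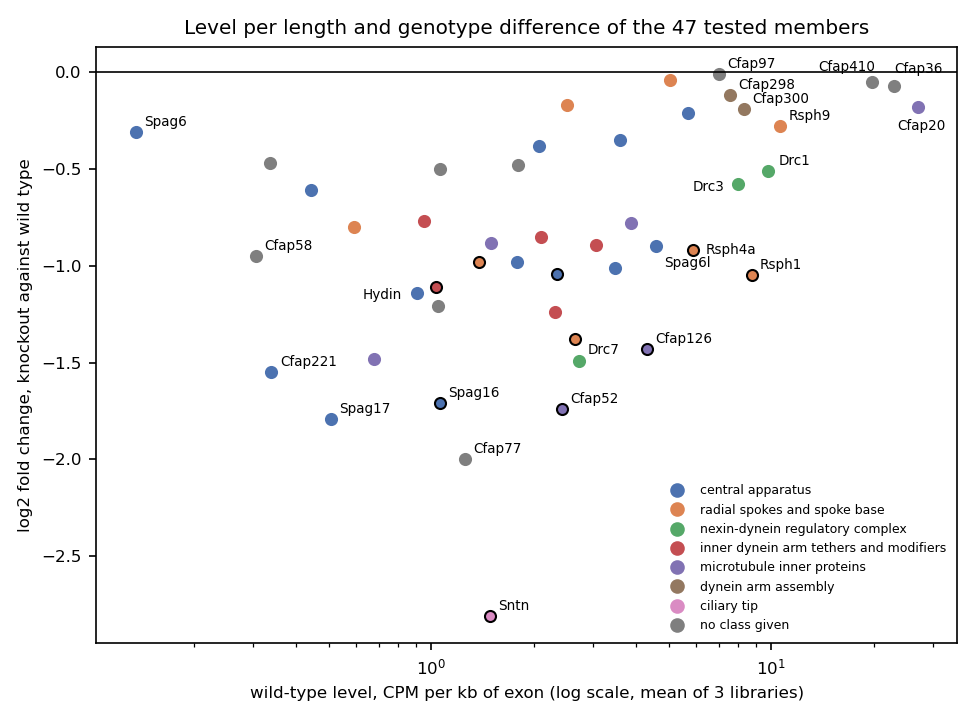
Log2 fold change against the mean wild-type level in CPM per kb of exon (log scale) for the 47 tested genes, coloured by class; points with a black rim passed the threshold. The genes with the highest level per kb, Cfap20, Cfap36 and Cfap410, lie within 0.25 of 0, and Sntn is the lowest point at -2.81.

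The libraries of a group did not stand at the same level over the members. Wild-type replicate 1 was the highest of all 6 libraries in 36 of the 47 members and knockout replicate 1 the lowest in 34. Within the knockout, replicate 2 was the highest library in 33 members. Taken as a percentage of each gene's wild-type mean, the median member was at 114%, 94.2% and 93.2% in wild-type replicates 1 to 3 and at 43.8%, 68.5% and 54.5% in knockout replicates 1 to 3. The groups did not overlap in this median. Summed CPM over the members, in the same order of libraries, was 753, 665 and 670 against 465, 559 and 515. With both first replicates left out, the median log2 fold change was -0.62 and 0 members passed, where 0.113% of all genes fell.

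**Figure D4:**
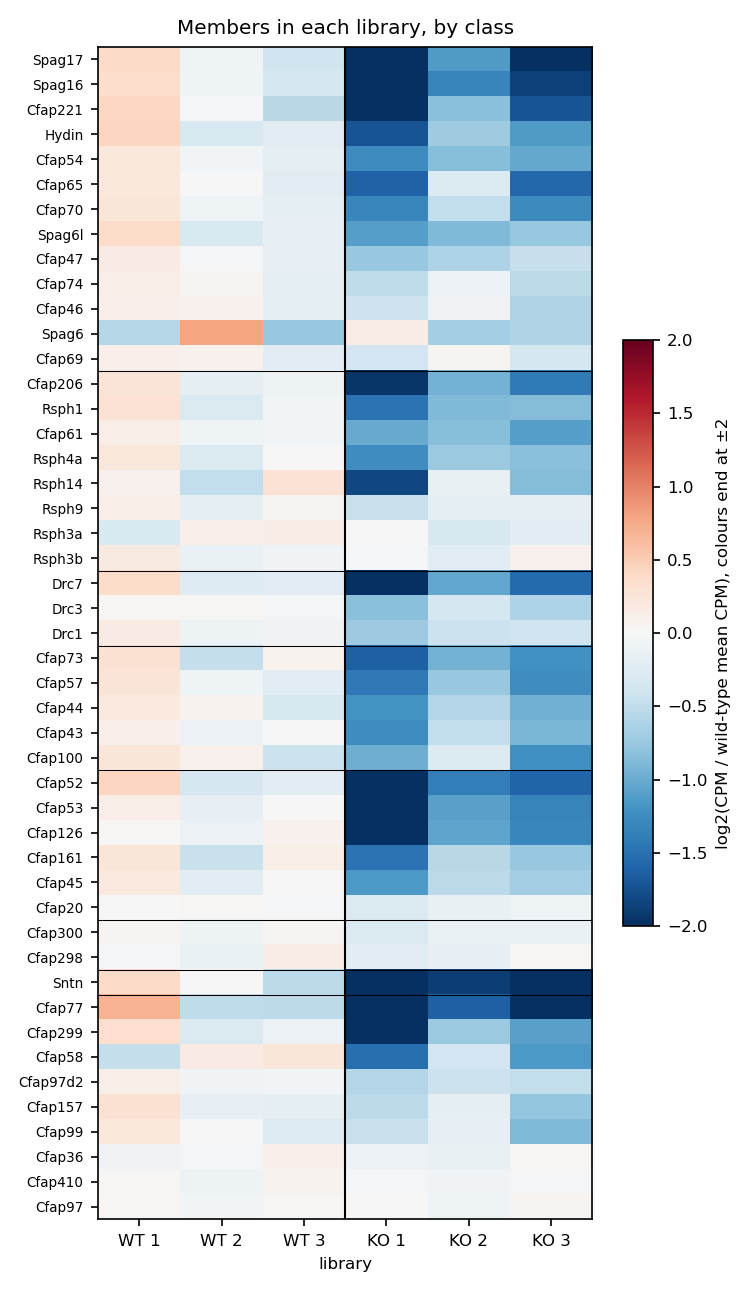
Each member's CPM relative to its wild-type mean on a log2 scale (blue lower, red higher) in the 6 libraries, with rows grouped by class in the order of the plot of fold changes. Knockout replicate 1 is the darkest column and replicate 2 the palest of the 3 knockout libraries, and the rows of Cfap36, Cfap410 and Cfap97 stay near white.

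The described members lie on 17 chromosomes and none of them on chromosome 12, which holds Ncoa1 (4297362 to 4569452 on GRCm39). Sntn is on chromosome 14 (8786615 to 8798887), Spag16 on chromosome 1 (69866031 to 70764291), Cfap54 on chromosome 10 (92611471 to 92919085) and Cfap61 on chromosome 2 (145776677 to 146056955), all on GRCm39 as the deposited table gives them.

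Other proteins of the axoneme were read from lists chosen by function. At the same threshold 0.592% of all tested genes fell and 0.242% rose. Of 21 further genes of the N-DRC, radial spokes and central apparatus, 4 fell and all 21 values were negative, with a median of -0.92. These were Ccdc40, which sets the axonemal repeat length (-0.98 ± 0.13), Iqub (-0.92 ± 0.15) and Dnajb13 (-1.55 ± 0.27) of the radial spokes, and Spef2 of the central pair (-1.24 ± 0.21). Among 14 further microtubule inner proteins, with a list median of -0.80, the genes that fell included the tektin Tekt1 (-0.99 ± 0.18), and Spag8 was at -0.97 ± 0.21 without passing (adjusted p 0.0676). Of 16 axonemal dynein arm genes, the outer arm heavy chain Dnah9 fell (-1.18 ± 0.18), with a median of -0.88. That list named 20 genes, but Dnai1, Dnai2, Dnai3 and Dnai4 were not found under those symbols and were not read. The inner arm heavy chains Dnah2 (-0.88 ± 0.18, adjusted p 0.067) and Dnah1 (-0.47 ± 0.10, adjusted p 0.0692) did not pass. None of these lists held a gene that rose past the threshold, although 1 value was positive among the inner proteins and 1 among the dynein arm genes. Of 11 transcription factors and regulators of multiciliated cells none passed in edgeR. At an unadjusted p under 0.05, 5 were lower and 0 higher, against 7.21% and 5.75% of all genes. Their list median was -0.33, with 9 negative and 2 positive values. DESeq2 called 3 of the 11 lower, against 2.75% of all genes, and limma-voom 0, against 0.4%. Foxj1 had 28.6, 22.8 and 16.2 CPM in wild type and 8.72, 14.5 and 10.4 CPM in the knockout, without overlap (-1.01 ± 0.28, adjusted p 0.209), while Rfx2 was at -0.75 ± 0.16 (adjusted p 0.0617) and Myb at -0.99 ± 0.29 (adjusted p 0.171). Together the 4 lists held 62 tested genes, of which 7 fell, and 0 to 21 fell with 1 library left out. The share of all genes that fell also moved between these fits and is given in brackets. Leaving out wild-type 1, 2 and 3 in turn, 1 (0.261%), 2 (0.379%) and 5 (0.752%) fell. Leaving out knockout 1, 2 and 3, it was 0 (0.111%), 21 (1.08%) and 4 (0.429%).

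Cfap91 and Cfap251, which the table lists under the older symbols Maats1 and Wdr66 and the rule therefore did not take, were looked up after the values were seen. Maats1, like Cfap61 a protein of the spoke base complex, fell from 8.73, 5.84 and 6.52 CPM to 1.72, 3.07 and 2.37 CPM (-1.56 ± 0.23, adjusted p 0.0223). Wdr66, of the same complex, was at -1.29 ± 0.29 without overlap (adjusted p 0.13).

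Marker lists of ependymal cells and of neighbouring cell types were read beside the members. Over 8 ependymal genes outside the axoneme, all 8 values were negative with a median of -0.98, and none was at 0 counts in a library. In edgeR 1 fell (Mia, -1.58 ± 0.18), against 0.592% of all tested genes. At an unadjusted p under 0.05, 8 were lower, against 7.21% of all genes. The knockout libraries lay below every wild-type library in 7, against 9.03%. DESeq2 called 6 lower, against 2.75%, and limma-voom 1, against 0.4%. Wild-type libraries summed to 161, 122 and 108 CPM over this list and knockout libraries to 69.6, 87.6 and 76.1 CPM, with wild-type replicate 1 highest and knockout replicate 1 lowest, as in the members. Of 11 tanycyte genes 8 fell in edgeR, 8 in DESeq2 and 7 in limma-voom, and 10 were lower at an unadjusted p under 0.05. Their summed CPM of 221, 254 and 294 against 121, 120 and 120 put wild-type replicate 1 lowest of its group, unlike the members, and left the knockout libraries level. Of 11 tested choroid plexus genes none passed in edgeR, 4 were lower and 0 higher at an unadjusted p under 0.05, DESeq2 called 3 lower and limma-voom 0. Their summed CPM overlapped between the groups (87.8 to 124 against 64.0 to 88.3), with the highest wild-type means in Prlr (51.2 CPM) and Clic6 (26.5 CPM). Every knockout library was below every wild-type library in 4 of the genes (Folr1, F5, Kl and Aqp1) and above in 0. Ttr, the most abundant transcript of that tissue, had 241, 382 and 29 counts in wild type against 11, 241 and 32 in the knockout. Of 8 meningeal genes 1 fell in edgeR, 3 in DESeq2 and 1 in limma-voom, with summed CPM of 63.4 to 253 against 56.5 to 62.0. Of 6 tested pituitary genes 1 fell in edgeR, with summed CPM of 10.5 to 19.5 against 1.77 to 5.43. This sum covers tested genes only and leaves out Gh, which did not pass the filter on low counts. Gh stood at 11.7 CPM for wild-type replicate 1, at 6.67 CPM for knockout replicate 1 and at 0.176 CPM or less elsewhere. Prl, which is part of the sum, was also highest in those libraries (1.54 and 3.07 CPM), followed by knockout replicate 2 (0.529 CPM). From the pituitary list DESeq2 called 4 lower and limma-voom 3. At an unadjusted p under 0.05, 3 meningeal and 4 pituitary genes were lower. Gh, Prl, Fshb and Pou1f1 of the pituitary list and Slc4a5 of the choroid plexus list were at 0 in at least 1 library. Of 6 oligodendrocyte genes 4 rose in edgeR, against 0.242% of all tested genes, with summed CPM of 3210 to 4020 against 5160 to 6940. DESeq2 called 6 of them higher and limma-voom 1. The part of these markers in the differences of the members was not tested.

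**Figure D5:**
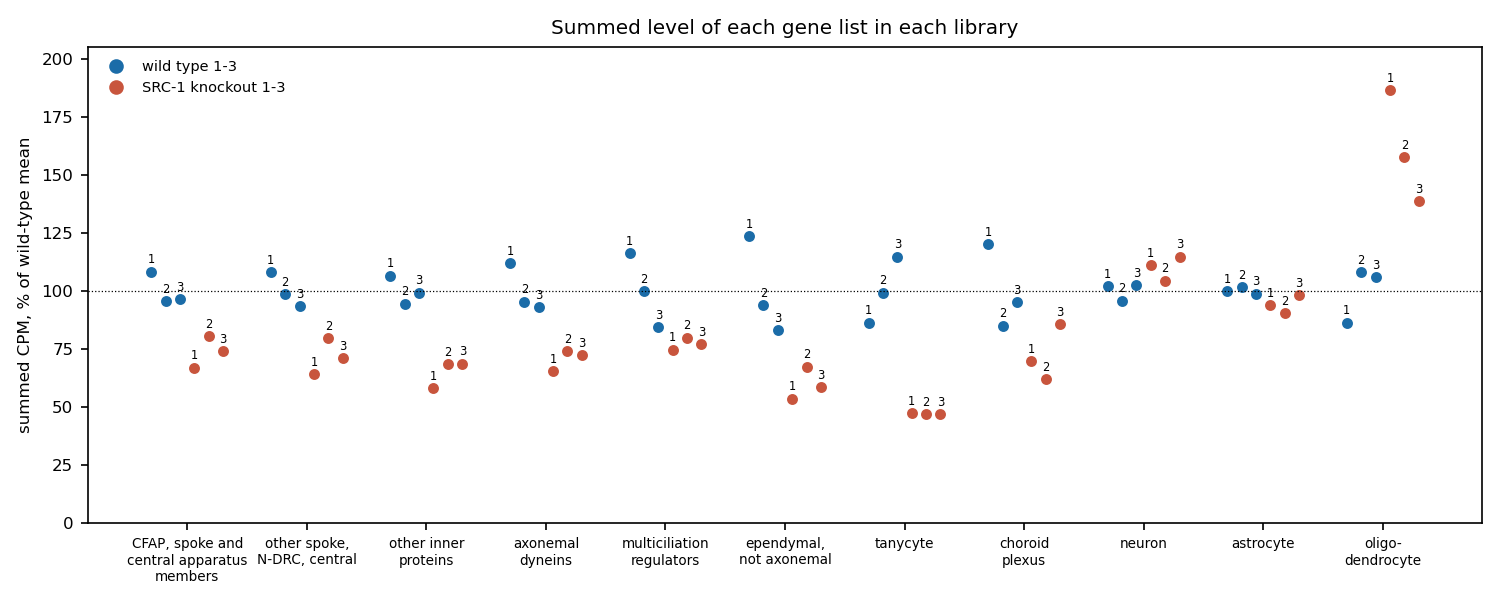
Summed CPM of each gene list in each library as a percentage of the wild-type mean, for the members, 4 lists of other cilium genes and 6 lists of cell type markers; numbers are replicates. The members, the other axonemal lists and the ependymal list share a high wild-type replicate 1 and a low knockout replicate 1, and the tanycyte list has level knockout libraries.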

How the data were processed

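The values were raw read counts per gene as the authors deposited them, for 3 wild-type and 3 knockout libraries of paired reads. They were made with STAR 2.7.10a and featureCounts 2.0.3 per the submitters' processing notes (2.0.0 per the file headers), on RefSeq genes of GRCm39. Per the file headers no option for strand, multiply mapped reads or reads of several genes was set, so antisense and overlapping genes are uncertain. Counts were fitted with edgeR 4.0.16 (quasi-likelihood test, TMM scaling, filterByExpr with a minimum count of 10, R 4.3.3), with Benjamini-Hochberg adjustment over all tested genes and a threshold of 0.05. CPM were computed from TMM-scaled library sizes, and errors of log2 fold changes are standard errors. Alternatives used DESeq2 1.42.0, limma 3.58.1 (voom), other scalings and filters, a replicate block and left-out libraries. The fit was tested on simulated data. Near copies were aligned with blastn 2.17.0. The members and lists were chosen with earlier results of these data known. Per-library values were given for members past the threshold, the lowest and highest p in each class, the 4 highest log2 fold changes, the 5 highest levels per kb and the near copies. In each list of other cilium genes, up to 3 genes with the lowest p were named, by fold change. Spag17, Hydin, Cfap65, Cfap43, Cfap44, Drc7, Cfap77, Rsph6a, Rsph9, Spef2, the library values of Foxj1 and the markers named were chosen after their values were seen. The values of 1 gene among the other microtubule inner proteins are not reported here.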

Additional observations from a re-analysis of the deposited data

How the results depend on the processing

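All 47 log2 fold changes were negative under TMM, RLE and library-total scaling, and none of the 10 genes that fell reversed under any alternative. The number of members that fell (10) was 3 with library totals alone, 25 without a filter on low counts, 3 with the stricter filter, 2 to 19 with 1 library left out, 0 without both first replicates, 25 in DESeq2, 6 in limma-voom and 18 with sample quality weights. The 7 other cilium genes that fell became 2, 25, 4, 0 to 21, 0, 30, 7 and 21 in the same order. Of all genes tested, 0.592% fell in the main fit. In that order of alternatives the share was 0.252%, 1.69%, 0.396%, 0.111% to 1.08%, 0.113%, 2.75%, 0.4% and 1.31%. The number of genes tested was 20257 in the main fit, 36500 without a filter and 15911 with the stricter one. Over all genes, the 120 that fell and 49 that rose became 51 and 15 with library totals, 616 and 350 without a filter, 63 and 21 with the stricter filter, 23 to 224 and 13 to 123 with 1 library left out, 23 and 6 without both first replicates, 537 and 295 in DESeq2, 81 and 22 in limma-voom, and 266 and 135 with sample quality weights. RLE scaling lost Cfap57 and Rsph1. The median of the members was -0.62 without both first replicates and -1.06 to -0.68 with 1 library left out. With 1 library left out, Cfap97 ran from -0.04 to 0.03 (0.01 leaving out wild-type 1 or 3, 0.03 leaving out knockout 2), Rsph3b from -0.12 to 0.05 (0.05 for wild-type 1, 0.03 for knockout 2) and Spag6 up to 0.33 (for wild-type 2). Rsph3b was at 0.04 with both first replicates left out. For all of these the cause was not tested. Samples with the same replicate number did not deviate together in every pair (correlations of -0.206, 0.351 and 0.224), so the numbers were not taken as pairs. With a replicate block, 2 members and 3 other cilium genes fell, where 0.499% of all genes fell. Counts were under 100 in every library for 8 tested members (Sntn, Cfap77, Cfap221, Cfap53, Cfap299, Cfap58, Rsph14 and Spag6), which limits their precision.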
